A study of Mus musculus with 2 samples.

Results

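The genes described here encode the machinery with which the endoplasmic reticulum takes in, folds, inspects and, where folding fails, destroys secreted proteins, together with the sensors that adjust that machinery. All 35 genes of the list were matched by symbol among 28693 genes, each to 1 row. They fall into 5 role groups: 7 translocon genes, 9 lumenal chaperones and cochaperones, 6 lectins and disulfide isomerases, 7 degradation genes and 6 sensors and transcription factors. The data are counts of transcript molecules (UMIs, unique molecular identifiers) in single cells of the whole pituitary gland of C57BL/6 male mice aged 7 weeks. The glands of 6 individually housed mice were digested with collagenase and trypsin for 4 h and pooled by 3 into 2 libraries, with 71 to 82% of cells viable. The labels give no treatment and no second condition, so comparisons are between cell classes and between cells of 1 class. The series title names markers of stem cells and of hormone cell types as the question.

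Hormone cells make secretory protein in bulk, which enters the reticulum through the Sec61 channel while it is still being translated. BiP, the product of Hspa5, is the main chaperone there and also holds the stress sensors inactive. When unfolded protein builds up, Ire1 (Ern1) splices the messenger of Xbp1, Atf6 is cut and moves to the nucleus, and Perk (Eif2ak3) slows translation and raises Atf4, which in turn raises Ddit3. Xbp1 and Atf6 mainly drive chaperone and transport genes, whereas Atf4 and Ddit3 belong to the branch that other stresses, such as shortage of amino acids, also use.

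The response element through which Atf6 and Xbp1 act is known, and its sequence shows which of these genes carry it. RefSeq promoters (build GRCm38.p6, 250 bases before to 50 after the start) were at hand for 29 of the 35 genes. The endoplasmic reticulum stress element, CCAAT and CCACG with 9 bases between them, was present on either strand in 9 of the 29 (31.0%), against 0.137% of 27025 genes with a promoter. The second form, ATTGG and CCACG with 1 base between them, was in 2 of the 29 (6.90%), against 0.0444% of all genes. No gene held both forms, and 11 genes held 1 of them: Hspa5, Hsp90b1, Calr, Canx, Pdia6, Creld2, Dnajc3, Dnajb11, Herpud1, Derl3 and Syvn1. The promoters of Ddit3, Atf4, Xbp1, Ssr4 and Sec61b hold neither in this window. A match is a stretch of letters, not a measured binding site. The stretches of 8 of the 11 are shown in the direction of the gene, with the element in capitals and 10 bases on each side.
Hspa5, chr2:34772015-34772053, plus strand: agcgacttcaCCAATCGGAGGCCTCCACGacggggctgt
Calr, chr8:84847065-84847103, minus strand: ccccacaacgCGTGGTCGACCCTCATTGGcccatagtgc
Canx, chr11:50325790-50325828, minus strand: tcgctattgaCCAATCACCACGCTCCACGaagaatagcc
Pdia6, chr12:17266481-17266519, plus strand: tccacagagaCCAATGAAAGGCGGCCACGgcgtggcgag
Creld2, chr15:88819510-88819548, plus strand: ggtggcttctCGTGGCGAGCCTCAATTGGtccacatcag
Dnajc3, chr14:118937817-118937855, plus strand: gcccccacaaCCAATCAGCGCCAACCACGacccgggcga
Syvn1, chr19:6046522-6046560, plus strand: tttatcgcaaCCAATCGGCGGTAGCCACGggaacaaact
Herpud1, chr8:94386367-94386397, plus strand, second form: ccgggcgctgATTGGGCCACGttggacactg
Calr and Creld2 carry the element on the other strand, so that the capitals read CGTGG first.

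After filtering, 6011 cells remained in library 1 and 6523 in library 2. The unfiltered libraries, with 6546 and 7117 barcodes, held 435946 and 521783 UMIs of the 35 genes. The libraries shared 54 barcode sequences, which can fall together by chance or come from 1 cell, and this was not tested. Before filtering, median depth was 10128 and 10636 UMIs per barcode, and hormone transcripts took 50.0% and 48.6% of all UMIs. Levels are therefore given relative to UMIs outside 7 hormone genes (Gh, Prl, Pomc, Cga, Lhb, Fshb and Tshb). Classes were named from marker genes and are called "-like". They held 3039 and 3022 somatotrope-like, 1443 and 1760 lactotrope-like, 259 and 273 gonadotrope-like, 223 and 294 corticotrope-like and 109 and 143 melanotrope-like cells. Classes without a hormone held 183 and 183 stem-like, 130 and 151 endothelial-like, 80 and 84 fibroblast-like, 51 and 80 macrophage-like and 20 and 33 pituicyte-like cells. Cycling cells numbered 103 and 111, and 371 and 389 cells stayed unnamed. Free RNA was present: Gh took a median of 1.05% and 0.789% of the UMIs of a stem-like cell.

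The 35 genes together were highest in the prolactin and growth hormone classes and stood in a graded order below them. Their summed level per 10000 UMIs outside hormone genes was 147 and 158 in lactotrope-like cells of libraries 1 and 2, and 131 and 133 in somatotrope-like cells. Melanotrope-like cells had 118 and 122, gonadotrope-like cells 106 and 112, and cycling cells, of which 71.8% and 78.4% were high in Gh, 109 and 111. Pituicyte-like cells had 85.1 and 91.8. Fibroblast-like cells, at 82.7 and 77.1, and corticotrope-like cells, at 81.1 and 78.5, overlapped. Stem-like cells had 69.8 and 73.0, macrophage-like cells 73.1 and 65.3 and endothelial-like cells 64.3 and 65.0. Corticotrope-like cells were thus the hormone class whose level lay among those of the classes without a hormone, while the other 4 hormone classes lay above all of these in both libraries. Thyrotrope-like cells formed a group of their own only at a finer clustering, with 10 and 32 cells, and had 164 and 125.

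**Figure D1:**
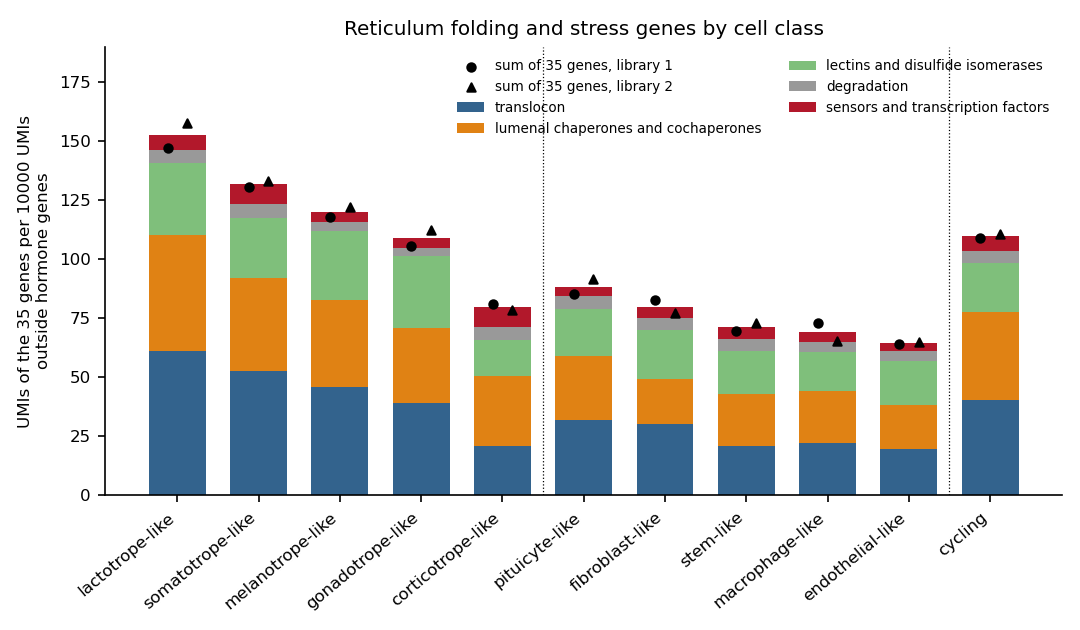
Summed level of the 35 genes in each cell class, in UMIs per 10000 UMIs outside hormone genes. Bars stack the mean of both libraries by role group, and the circle and triangle are the sums in libraries 1 and 2; hormone classes stand left of the first dotted line and cycling cells right of the second. Lactotrope-like cells had 147 and 158, and corticotrope-like cells 81.1 and 78.5.

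In the mean of the 5 hormone classes, 22 of the 35 genes were higher and 3 lower than in the mean of the 5 classes without a hormone (edgeR quasi-likelihood test, Benjamini-Hochberg adjusted p below 0.05 over all 11956 genes tested). Among all genes tested, 28.6% were higher and 17.9% lower in the hormone classes. The median log2 fold change of the 35 was 0.30, against 0.11 for all genes tested. Lumenal chaperones were higher in 7 of 9 cases, translocon genes in 6 of 7 and lectins and isomerases in 5 of 6, while sensors and factors were higher in 3 of 6 and degradation genes in 1 of 7. Levels of single genes are given as CPM, taken over UMIs outside hormone genes and scaled by the trimmed mean of M values (TMM). Sdf2l1, which works with BiP as a cochaperone, averaged 282 and 289 CPM over the hormone classes of libraries 1 and 2, against 90.3 and 108 CPM over the others (log2 fold change 1.63 ± 0.08, SE; adjusted p = 3.25e-29, edgeR). Manf, a small secreted protein of the lumen, averaged 890 and 897 CPM over the hormone classes, against 387 and 393 CPM over the others (log2 1.11 ± 0.05). Ddit3 averaged 170 and 209 CPM over the hormone classes, against 90.7 and 92.2 CPM over the others (log2 1.02 ± 0.10), and Ssr4 averaged 975 and 957 CPM, against 468 and 449 CPM (log2 0.97 ± 0.05). In these 4 genes the groups of classes differed by more than the libraries did. Ddit3 was also compared in cells at or under their library's median level of a list of genes that tissue digestion raises, described further on. There it was higher by log2 0.57 ± 0.16. Too few macrophage-like and pituicyte-like cells remained, so this reference held only stem-like, endothelial-like and fibroblast-like cells. Dnajb11, a cochaperone of BiP, went the other way, with 90.4 and 90.6 CPM against 110 and 124 CPM (log2 -0.42 ± 0.09; adjusted p = 4.47e-05, edgeR), and so did Derl2 of the degradation channel (log2 -0.39 ± 0.11).

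Lactotrope-like cells had the highest level of 17 of the 35 genes among the 11 classes, and 25 were higher and 2 lower than in the mean of the other hormone classes. Of all genes, 22.7% were higher and 19.5% lower there. All 7 translocon genes, 7 of 9 chaperones and 5 of 6 lectins and isomerases were higher. Ssr2, a translocon-associated protein that helps nascent chains through the Sec61 channel, had the largest difference among the called genes with at least 50 CPM. It had 900 and 884 CPM in lactotrope-like cells, 497 and 487 CPM in somatotrope-like cells and 241 CPM in the mean of the libraries of gonadotrope-like cells (log2 1.72 ± 0.06 over the mean of the other hormone classes; adjusted p = 3.26e-42, edgeR). Ssr4, of the same complex, had 1649 and 1624 CPM in lactotrope-like cells, against means between 322 and 1027 CPM in the other hormone classes (log2 1.17 ± 0.06). Neither gene's lactotrope-like values overlapped those of another class. Sdf2l1 (log2 1.31 ± 0.07) and Manf (log2 1.29 ± 0.06) came between Ssr2 and Ssr4. Xbp1, the factor of the Ire1 branch, was higher in lactotrope-like cells (252 and 269 CPM; log2 0.62 ± 0.07), as was Hspa5 (1237 and 1377 CPM; log2 0.30 ± 0.07). Hsp90b1, which encodes the lumenal chaperone Grp94, did not pass (586 and 666 CPM; log2 -0.02 ± 0.07; adjusted p = 0.831, edgeR), nor did Atf4 (log2 0.15 ± 0.08; adjusted p = 0.139, edgeR). The lower genes were Sel1l, an adaptor of the degradation ligase (log2 -0.28 ± 0.11; adjusted p = 0.0259, edgeR), and Ddit3 (113 and 160 CPM; log2 -0.24 ± 0.09; adjusted p = 0.0245, edgeR). The Ddit3 call was lost with DESeq2 (adjusted p = 0.106) and without the library block (adjusted p = 0.133, edgeR), and in the cells at or under the median of the digestion list Ddit3 was higher (log2 0.46; adjusted p = 0.000427, edgeR).

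Somatotrope-like cells had 23 genes higher and 2 lower than the mean of the other hormone classes, against 25.5% and 20.9% of all genes. All 7 translocon genes and 5 of 6 sensors and factors were higher, and only 2 of 6 lectins and isomerases. Among the called genes with at least 50 CPM, Ddit3 was first (log2 0.91 ± 0.08, adjusted p = 3.01e-15, edgeR). It had 235 and 279 CPM in somatotrope-like cells and class means of 80.7 to 388 CPM in the other hormone classes. Herpud1, a membrane protein of the degradation complex (log2 0.68 ± 0.14), Ssr2 (log2 0.65 ± 0.07) and Xbp1 (247 and 265 CPM; log2 0.59 ± 0.07) came next. Sdf2l1 (189 and 190 CPM; log2 -0.52 ± 0.08) and Calr, the lectin chaperone calreticulin (550 and 517 CPM; log2 -0.39 ± 0.07), were lower. Hspa5 did not pass (log2 0.14 ± 0.07; adjusted p = 0.133, edgeR).

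Gonadotrope-like cells and melanotrope-like cells differed less in sum and more in composition. In gonadotrope-like cells 7 genes (20%) were higher and 14 (40%) lower, against 20.5% and 16% of all genes, so the share called higher was near that of all genes. Among lectins and isomerases 3 of 6 were higher, and among sensors and factors 4 of 6 were lower. Canx, the membrane-bound lectin calnexin, had 447 and 465 CPM, its highest level among the classes (log2 0.58 ± 0.07), and Hsp90b1 had 752 and 853 CPM, also its highest mean, though its cycling-cell values of 757 and 729 CPM overlapped (log2 0.42 ± 0.07). Sel1l (83.3 and 90.3 CPM; log2 0.76 ± 0.12), Creld2, a disulfide isomerase induced by stress (log2 0.58 ± 0.08), and Calr (log2 0.54 ± 0.07) were higher too. Herpud1 had 87.8 and 97.3 CPM, its lowest level among the classes (log2 -1.25 ± 0.18), and Dnajb9 (log2 -1.14 ± 0.09), which counteracts Ire1, and Ddit3 (83.3 and 86.7 CPM; log2 -1.09 ± 0.11) were lower. In melanotrope-like cells 9 were higher and 7 lower, against 10.9% and 7.93% of all genes. Calr reached 955 and 906 CPM there, overlapping the 867 and 919 CPM of gonadotrope-like cells (log2 0.61 ± 0.07), and Creld2 (log2 0.54 ± 0.13), Sdf2l1 (log2 0.51 ± 0.10) and the channel subunit Sec61a1 (log2 0.46 ± 0.13) were higher. Ddit3 (91.4 and 70.1 CPM; log2 -1.22 ± 0.15), Herpud1 (log2 -1.08 ± 0.24) and Atf4 (log2 -0.89 ± 0.14) were lower. These 2 classes had the lowest level of a dissociation list among hormone classes: 12 immediate early and heat shock genes, among them Fos, Jun, Egr1, Atf3 and Hspa1a, that tissue digestion is known to raise. The list stood at 54.8 and 62.5 UMIs per 10000 in gonadotrope-like and 39.8 and 52.7 in melanotrope-like cells. In the cells at or under the median of that list, 7 genes were higher and 9 lower in gonadotrope-like cells than in the other hormone classes. Herpud1 (log2 -0.87 ± 0.13), Dnajb9 (log2 -0.98 ± 0.10) and Ddit3 (log2 -0.52 ± 0.15) were still lower there, and Sel1l, Calr and Canx still higher. In the same restriction 13 genes were higher and 2 lower in melanotrope-like cells. For neither restricted class is the share of all genes called given, so these counts have no such comparison. Calr, Sdf2l1, Creld2 and Sec61a1 were still higher and Herpud1 still lower (log2 -0.44 ± 0.16; adjusted p = 0.0493, edgeR), whereas Ddit3 (log2 -0.11 ± 0.20; adjusted p = 0.815, edgeR) and Atf4 (log2 -0.16 ± 0.16; adjusted p = 0.585, edgeR) did not pass.

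**Figure D2:**
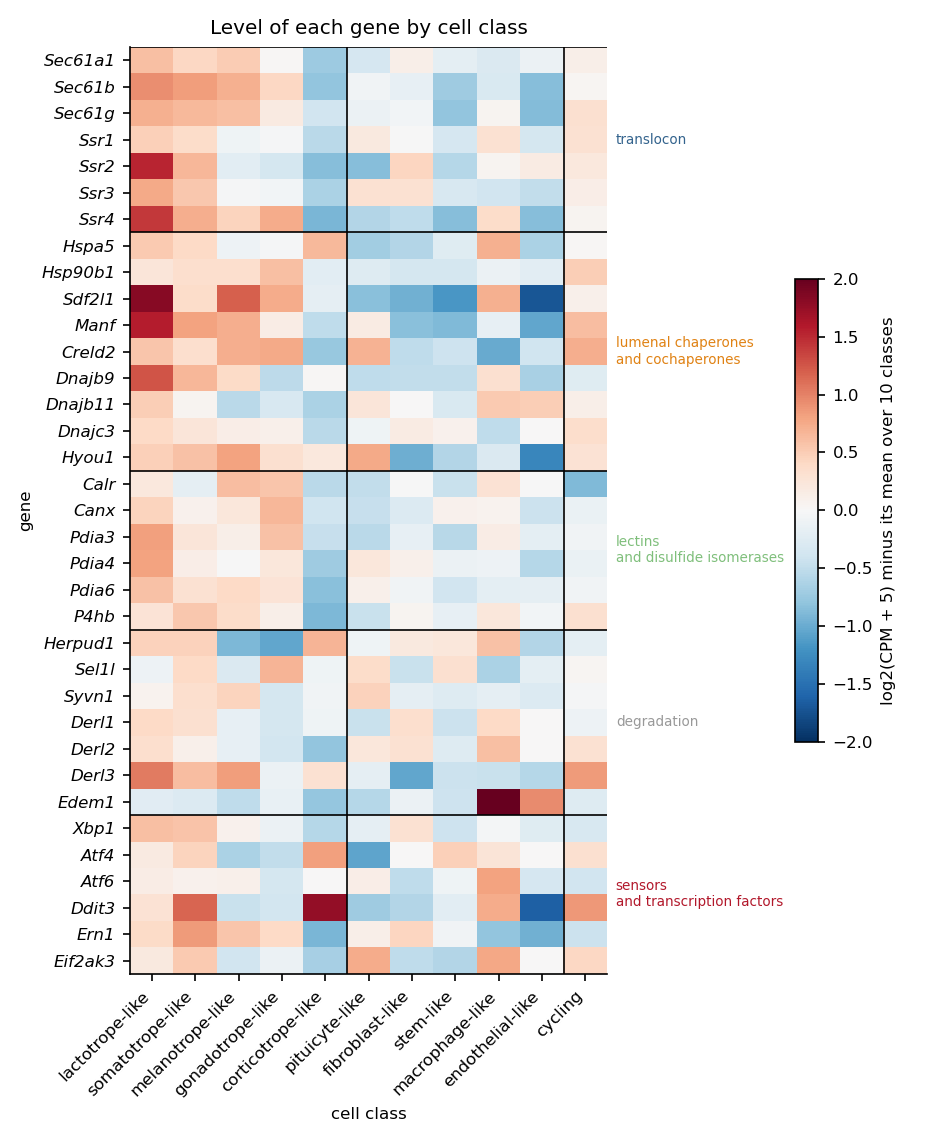
Level of each of the 35 genes (rows, by role group) in each cell class (columns), as log2(CPM + 5) of the mean of both libraries minus its mean over the 10 classes other than cycling cells. Red is above that mean and blue below; Ssr4 was highest in lactotrope-like cells at a mean of 1637 CPM and lowest in corticotrope-like cells at 322 CPM, while Ddit3 was highest in corticotrope-like cells at 388 CPM.

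Corticotrope-like cells, which make Pomc, combined the lowest folding machinery of the hormone classes with the highest levels of the Atf4 and Ddit3 branch. Of the 35 genes 24 were lower and 4 higher than in the mean of the other hormone classes, against 13.2% of all genes lower and 17% higher. The median log2 fold change was -0.82, against -0.000951 over all genes tested. All 7 translocon genes, all 6 lectins and isomerases and 7 of 9 chaperones were lower. Ssr4 had 331 and 313 CPM in corticotrope-like cells, against means between 834 and 1637 CPM in the other 4 hormone classes (log2 -1.76 ± 0.09; adjusted p = 1.05e-32, edgeR). Sec61b, a subunit of the channel, had 379 and 384 CPM, against means between 886 and 1269 CPM (log2 -1.53 ± 0.08). Creld2 (log2 -1.46 ± 0.13), Xbp1 (118 and 109 CPM; log2 -0.88 ± 0.10) and Hsp90b1 (447 and 462 CPM; log2 -0.60 ± 0.08) were lower as well. Corticotrope-like cells had the lowest level of 13 of the 35 genes among the 11 classes.

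The 4 higher genes were Ddit3, Atf4, Herpud1 and Hspa5. Ddit3, which encodes Chop, had 327 and 449 CPM in corticotrope-like cells, against class means of 257 CPM in somatotrope-like and 80.7 to 137 CPM in the other 3 hormone classes (log2 1.65 ± 0.09; adjusted p = 3.72e-24, edgeR). Atf4 had 284 and 314 CPM (log2 0.97 ± 0.10), Herpud1 338 and 297 CPM (log2 0.96 ± 0.16) and Hspa5 1437 and 1401 CPM (log2 0.45 ± 0.08; adjusted p = 3.32e-06, edgeR). These values lay above those of the other hormone classes in both libraries. The dissociation list was at 250 and 243 UMIs per 10000 in these cells, its highest mean among the classes, although macrophage-like cells overlapped at 200 and 252. It was at 126 and 147 in somatotrope-like and 95.3 and 113 in lactotrope-like cells, and all 12 of its genes were higher in corticotrope-like cells than in the other hormone classes. The median corticotrope-like cell had 4069 and 3926 UMIs outside hormone genes, against 4893 and 5171 in somatotrope-like cells. Its mitochondrial share of all UMIs was 5.23% and 5.14%, against 1.86% and 1.89%. That total includes hormone genes, which took a median of 6.88% and 6.08% in corticotrope-like and 62.8% and 62.0% in somatotrope-like cells. The 2 classes are therefore not comparable on this share, and it was not computed outside hormone genes.

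Both sides of this pattern were therefore measured again in cells at or under the median dissociation level of their library, a restriction chosen after the data were seen. It kept 50 of 223 and 80 of 294 corticotrope-like cells. Among them 26 of the 34 genes tested were lower than in the equally restricted other hormone classes. The share of all genes called in this restricted fit is not given, so the count of 26 has no such comparison. The translocon stayed lower for all 7 genes, with Ssr4 at log2 -1.94 ± 0.10 and Sec61b at log2 -1.41 ± 0.09. Hspa5 was now lower in corticotrope-like cells (log2 -1.05 ± 0.09; adjusted p = 1.47e-17, edgeR). Ddit3 (log2 -0.15 ± 0.24; adjusted p = 0.793, edgeR), Atf4 (log2 -0.37 ± 0.20; adjusted p = 0.242, edgeR) and Herpud1 (log2 -0.31 ± 0.19; adjusted p = 0.329, edgeR) no longer passed. The summed level of the 35 genes in these cells was 58.4 and 62.3 per 10000. Translocon genes thus kept their lower level in the restricted cells, whereas none of the 4 stress genes was called higher there.

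**Figure D3:**
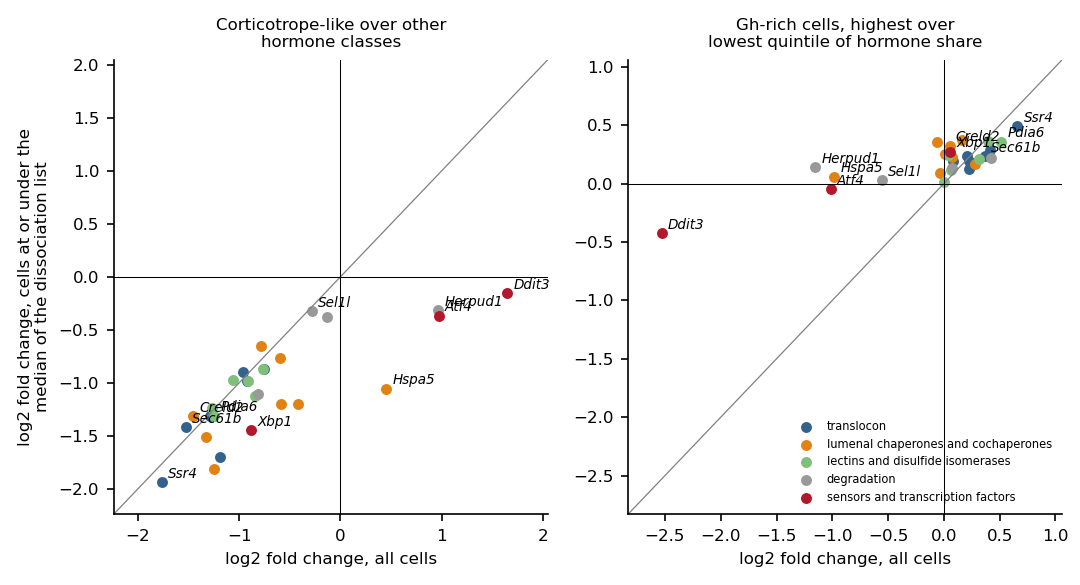
Log2 fold change of each gene with at least 50 CPM on the higher side, in all cells (horizontal) and in cells at or under the median dissociation level (vertical), for corticotrope-like cells over the other hormone classes (left) and for the highest over the lowest quintile of hormone share in Gh-rich cells (right). Points on the grey line are equal in both; on the left Hspa5 lies at -1.05 in the restricted cells and 0.45 in all cells, and on the right Ddit3 lies at -0.42 in the restricted cells and -2.53 in all cells, while Ssr4 lies near the line in both.

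Classes without a hormone had mostly lower levels than the mean of the hormone classes. In stem-like cells 23 genes were lower and 1 higher, against 25.6% and 32.2% of all genes. Sdf2l1 had 62.0 and 61.6 CPM there (log2 -2.04 ± 0.11), and Manf (log2 -1.45 ± 0.08) and Ssr4 (log2 -1.34 ± 0.08) followed; Atf4 was the higher gene (218 and 255 CPM; log2 0.43 ± 0.09), and in the restricted cells it did not pass (log2 -0.20 ± 0.13; adjusted p = 0.220, edgeR). In endothelial-like cells 21 were lower and 2 higher, against 27.2% and 29.9%. Ddit3 was at its lowest there, with 38.2 and 26.8 CPM (log2 -2.28 ± 0.18). The dissociation list stood at 155 and 151 per 10000 in the summed counts of endothelial-like cells. Its median per endothelial-like cell was 55.3 and 68.4, against medians of 51.4 and 71.3 over all cells of the libraries. Sdf2l1 (29.7 and 52.4 CPM; log2 -2.60 ± 0.15) and Manf (log2 -1.60 ± 0.09) were lower, and Dnajb11 was higher (137 and 146 CPM; log2 0.72 ± 0.12). In fibroblast-like cells 14 were lower and 2 higher, against 15.4% and 20.2%; the higher ones were Derl2 (log2 0.53 ± 0.21) and Ssr2 (log2 0.29 ± 0.10), and Sdf2l1 (log2 -1.80 ± 0.18), Manf (log2 -1.41 ± 0.10) and Ddit3 (log2 -1.10 ± 0.20) were among the lower. In the restricted cells Ddit3 did not pass in fibroblast-like cells (log2 0.07; adjusted p = 0.912, edgeR). In pituicyte-like cells 15 were lower and 0 higher by edgeR, against 10.3% and 10.7%; at an unadjusted p below 0.05 1 was higher, and DESeq2 called 1. Sdf2l1 (log2 -1.62 ± 0.23), Ddit3 (log2 -1.29 ± 0.28) and Atf4 (log2 -1.19 ± 0.26) were among the lower genes. Derl3, a derlin of the degradation channel, had 0 UMIs in fibroblast-like cells, which allows up to 4.27 CPM (3 counts over the class) and makes it at least 2.47-fold lower than the hormone class mean of 10.5 CPM.

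In macrophage-like cells 8 genes were lower and 4 higher, against 13.1% and 17.3% of all genes. The higher ones were 2 of the 7 degradation genes and 2 of the 9 chaperones. Edem1, a lectin that hands misfolded glycoproteins to degradation, had 45.7 and 124 CPM, against means between 7.28 and 13.8 CPM in the hormone classes (log2 2.98 ± 0.36; adjusted p = 1.17e-11, edgeR). Both libraries lay above every other class, although they differed widely from each other. Derl2 (102 and 96.6 CPM; log2 0.84 ± 0.25), Dnajb11 (log2 0.75 ± 0.20) and Hspa5 (1149 and 1830 CPM, against 1107 and 1149 CPM over the hormone classes; log2 0.44 ± 0.09) were higher. The dissociation list was at 200 and 252 UMIs per 10000 in these cells, with 10 of its 12 genes higher than in the hormone classes, and the 12 and 13 cells at or under the median were too few to fit. Creld2 (log2 -1.42 ± 0.31), Sec61b (log2 -0.74 ± 0.11) and Manf (log2 -0.72 ± 0.11) were lower. Macrophage-like counts depended on scaling: without the TMM factor 22 were lower and 1 higher, Hspa5 was at log2 -0.17, and the median of all genes was -0.80, against -0.21 with it. With DESeq2 4 were lower and 7 higher, and the median of all genes was 0.02.

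Other genes of the secretory pathway, from lists kept apart from the 35, were also mostly higher in lactotrope-like and lower in corticotrope-like cells. In lactotrope-like cells 10 of 12 oligosaccharyltransferase genes, which attach sugars to nascent proteins, were higher and 1 lower, led by Ostc (log2 1.20 ± 0.06) and Rpn2 (log2 1.14 ± 0.07). Of 16 tested genes of targeting and signal cleavage 12 were higher, and of 24 genes of transport between reticulum and Golgi 14 were higher and 3 lower. In corticotrope-like cells 10, 16 and 16 genes of these lists were lower, and 2 of the transport genes higher, with Tram1 at log2 -1.48 ± 0.11 and the cargo receptor Tmed3 at log2 -1.57 ± 0.09. Among 18 other regulators and targets of the stress response, 9 were higher and 3 lower in corticotrope-like cells, led by Atf3 (log2 3.32 ± 0.16), which is also on the dissociation list, and Sesn2 (log2 3.03 ± 0.24). The summed level of these 18 was 18.5 and 18.6 per 10000 in corticotrope-like cells, against 9.37 and 10.8 in somatotrope-like cells. In cells at or under the median dissociation level it was 6.53 and 7.80 in corticotrope-like cells, against 7.08 and 7.83 in somatotrope-like cells. Atf3 counts in this sum and is among the genes by which these cells were chosen, so the restricted sum is not independent of the choice. Of 23 other folding genes 13 were higher and 2 lower in lactotrope-like cells and 13 lower in corticotrope-like cells, and of 16 other degradation genes 7 were higher and 1 lower in lactotrope-like cells and 7 lower in corticotrope-like cells. The order of the summed levels was not that of the 35 genes in each list: other folding genes had means of 32.4 per 10000 in fibroblast-like and 32.0 in lactotrope-like cells, and targeting genes 57.1 in somatotrope-like and 56.5 in lactotrope-like cells.

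Across the 11 classes the level of 20 of the 35 genes had a Pearson correlation above 0.5 with the sum of the other 34, as a description over classes that share libraries, with a median of 0.64. Atf4 and Edem1 were the 2 genes below 0.

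The second question was how the level relates to the hormone share within cells rich in growth hormone or prolactin transcript. Gh-rich cells (Gh over 30% of UMIs, Prl up to 15%) numbered 3391 and 3336, and Prl-rich cells (Prl over 15%, Gh up to 30%) 1208 and 1458. They were cut into quintiles of the share of UMIs from the 7 hormone genes within each library. The median share in the highest quintile of Gh-rich cells was 69.6% and 68.0%, against 48.4% and 47.9% in the lowest. In the highest quintile of Prl-rich cells it was 53.8% and 55.5%, against 20.5% and 21.9% in the lowest. Hormone genes are outside both totals and tests, so a larger hormone share does not by itself lower these levels.

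In Gh-rich cells the sum of the 35 genes was nearly level over the quintiles, while its role groups moved in opposite directions. From the lowest to the highest quintile the sum was 130, 128, 126, 130 and 130 per 10000 in library 1, and 137, 130, 129, 128 and 134 in library 2. Translocon genes stood at 43.5, 49.3, 52.2, 54.8 and 55.5 in library 1 and at 46.6, 53.3, 55.1, 55.6 and 58.7 in library 2. Sensors and factors stood at 11.0, 8.47, 6.44, 6.35 and 5.69 in library 1 and at 14.1, 8.79, 6.87, 6.40 and 6.37 in library 2. The summed translocon level was therefore higher, and that of sensors and factors lower, at each step in both libraries. Of the 6 sensors and factors only Ddit3 and Atf4 were called lower in the test below, and the other 4 were not called. Across cells, Spearman's rho with the hormone share was 0.075 and 0.0077 for the sum, 0.27 and 0.24 for translocon genes and -0.15 and -0.19 for sensors and factors (3391 and 3336 cells, a description in which both measures share a cell's depth).

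**Figure D4:**
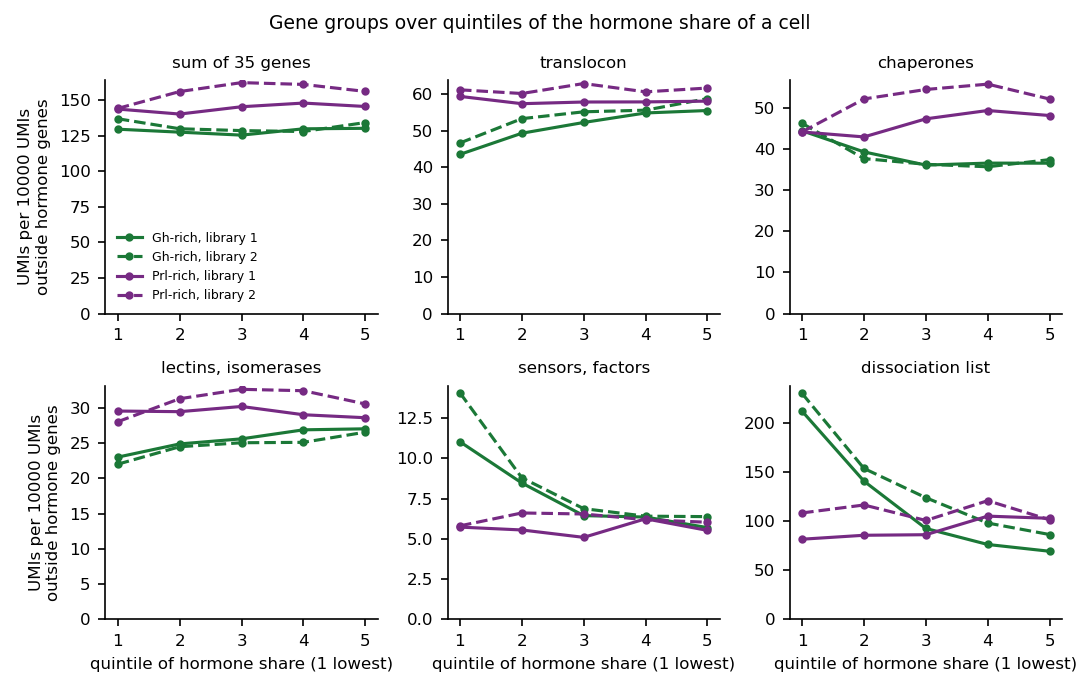
Summed level of gene groups, in UMIs per 10000 UMIs outside hormone genes, over quintiles of the hormone share of a cell, from the lowest to the highest. Lines are Gh-rich (green) and Prl-rich (purple) cells of library 1 (solid) and library 2 (dashed); axes start at 0 and differ between panels. In Gh-rich cells the translocon was at 55.5 and 58.7 in the highest quintile, against 43.5 and 46.6 in the lowest, and the dissociation list at 69.3 and 86.4, against 212 and 230.

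In the test of the highest against the lowest quintile of Gh-rich cells, 12 of the 35 genes (34.3%) were higher and 5 (14.3%) lower. Of all 11974 genes tested 12.8% were higher and 14.2% lower, so the share called lower was near that of all genes. The higher ones included 6 of 7 translocon genes and 3 of 6 lectins and isomerases. Ssr4 had 1178 and 1195 CPM in the highest quintile, against 753 and 750 CPM in the lowest (log2 0.66 ± 0.03; adjusted p = 4.28e-34, edgeR). Pdia6, a disulfide isomerase, had 510 and 526 CPM in the highest quintile, against 365 and 362 CPM in the lowest (log2 0.51 ± 0.04). Ssr2 (log2 0.42 ± 0.04), Derl2 (log2 0.42 ± 0.10) and Sec61b (1363 and 1374 CPM, against 1046 and 1073 CPM; log2 0.37 ± 0.03) were also higher. In each of these genes the quintiles differed by more than the libraries did.

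The 5 lower genes were Ddit3, Herpud1, Atf4, Hspa5 and Sel1l. Ddit3 had 89.96 and 104 CPM in the highest quintile, against 471 and 655 CPM in the lowest (log2 -2.53 ± 0.20; adjusted p = 0.00114, edgeR). Herpud1 had 204 and 201 CPM in the highest quintile, against 435 and 464 CPM in the lowest (log2 -1.15 ± 0.05), and Atf4 had 161 and 197 CPM, against 314 and 409 CPM (log2 -1.01 ± 0.06). Hspa5 had 924 and 941 CPM in the highest quintile, against 1777 and 1916 CPM in the lowest (log2 -0.98 ± 0.04; adjusted p = 6.21e-20, edgeR). Sel1l had 64.6 and 66.5 CPM, against 90.3 and 103 CPM (log2 -0.56). Xbp1 (log2 0.06 ± 0.05; adjusted p = 0.489, edgeR) and Hsp90b1 (log2 -0.04 ± 0.04; adjusted p = 0.528, edgeR) did not pass. From the lowest to the highest quintile Ddit3 stood at 471, 291, 160, 124 and 89.96 CPM in library 1, lower at every step.

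The dissociation list moved with these 5 genes. It was at 69.3 and 86.4 UMIs per 10000 in the highest quintile of Gh-rich cells, against 212 and 230 in the lowest, and all 12 of its genes were lower. In Gh-rich cells at or under the set's median of that list, cut into quintiles anew, the list stood at 29.0 and 39.7 in the highest quintile, against 28.7 and 40.4 in the lowest. There 13 of the 35 genes were higher and 1 lower. The share of all genes called in this restricted fit is not given, so these counts have no such comparison. Ssr4 (log2 0.49 ± 0.04), Pdia3 (log2 0.37 ± 0.05), Pdia6 (log2 0.36 ± 0.06) and Sec61b (log2 0.24 ± 0.04) were higher, as were Dnajb9 (log2 0.37 ± 0.07) and Xbp1 (log2 0.27 ± 0.08; adjusted p = 0.00802, edgeR). Ddit3 was lower by far less (log2 -0.42 ± 0.13; adjusted p = 0.0137, edgeR). Hspa5 (log2 0.06), Herpud1 (log2 0.14), Atf4 (log2 -0.05) and Sel1l (log2 0.03) did not pass. In these cells the sum of all 35 genes was 128 and 132 per 10000 in the highest quintile, against 113 and 116 in the lowest. Median depth outside hormone genes was 4476 and 4903 UMIs in the highest quintile of all Gh-rich cells, against 4587 and 4928 in the lowest. The mitochondrial share of all UMIs, hormone genes included, was 1.54% and 1.69%, against 2.26% and 2.26%. A larger hormone share by itself lowers this value, and it was not computed outside hormone genes. Cycling cells made up 0.884% and 0.299% of the highest quintile, against 4.28% and 6.60% of the lowest. Cells named somatotrope-like were 93.4% and 94.5% of the highest quintile, against 77.6% and 78.1% of the lowest, and somatotrope markers stood at 9.25 and 8.57 per 10000, against 6.77 and 6.29. Of 14 marker lists of other cell types, 12 were lower in the highest quintile in both libraries, and none was higher in both. Red blood cell genes were at 4.29 and 2.20 per 10000 in the highest quintile, against 44.9 and 33.8 in the lowest, stem cell markers at 0.350 and 0.257, against 3.30 and 1.94, and endothelial markers at 0.323 and 0.198, against 1.70 and 1.36. The part of these markers, of cycling cells and of the mitochondrial share in the results was not tested.

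In Prl-rich cells the sum was 144, 140, 145, 148 and 146 per 10000 from the lowest to the highest quintile in library 1, and 144, 156, 162, 161 and 156 in library 2. Of the 35 genes 9 were higher and 1 lower in the highest quintile, against 3.94% and 3.61% of 9899 genes tested. The 9 higher genes were 4 of 9 chaperones and cochaperones, 2 of 6 lectins and isomerases, 2 of 7 translocon genes and Xbp1. Creld2 had 116 and 162 CPM in the highest quintile, against 91.4 and 93.9 CPM in the lowest (log2 0.60 ± 0.11; adjusted p = 8.3e-05, edgeR). Dnajb9 had 538 and 594 CPM, against 387 and 398 CPM (log2 0.53 ± 0.07). Dnajc3, a cochaperone of BiP, had 281 and 327 CPM, against 228 and 213 CPM (log2 0.47 ± 0.09), and Xbp1 had 260 and 309 CPM, against 228 and 215 CPM (log2 0.36 ± 0.09; adjusted p = 0.00244, edgeR). Sec61b was higher by a little (log2 0.18 ± 0.05). Ssr4 was the lower gene, with 1324 and 1290 CPM in the highest quintile, against 1716 and 1767 CPM in the lowest (log2 -0.41 ± 0.04; adjusted p = 7.5e-11, edgeR). Hspa5 (log2 0.06 ± 0.08; adjusted p = 0.785, edgeR), Atf4 (log2 -0.27 ± 0.09; adjusted p = 0.0696, edgeR) and Ddit3 (log2 -0.31 ± 0.34; adjusted p = 0.736, edgeR) did not pass. With DESeq2 4 genes were called in place of 10, and Creld2 (adjusted p = 0.212) and Xbp1 (adjusted p = 0.391) were not among them. Of the 14 marker lists of other cell types 4 were lower and 6 higher in the highest quintile in both libraries, with cycling markers at 0.0490 and 0.0862 per 10000, against 2.35 and 1.09 in the lowest. Red blood cell genes differed between the libraries, at 23.9 and 2.95, against 1.71 and 24.1. The part of these markers was not tested.

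The difference of these changes between Prl-rich and Gh-rich cells was tested in 1 fit. It was positive for 9 of the 35 genes and negative for 4, against 3.69% and 3.22% of 11688 genes tested. Ddit3 (log2 difference 2.21 ± 0.40; adjusted p = 0.0115, edgeR), Herpud1 (1.21 ± 0.10), Hspa5 (1.04 ± 0.12) and Atf4 (0.74 ± 0.11) were the most positive; each was called lower in Gh-rich cells and not called in Prl-rich cells. Ssr4 (log2 difference -1.07 ± 0.06; adjusted p = 6.64e-30, edgeR), Pdia3 (-0.51 ± 0.06) and Ssr2 (-0.49 ± 0.07) were the most negative. Ssr4 thus moved in opposite directions, higher with hormone share in Gh-rich cells and lower in Prl-rich cells. In cells at or under the median dissociation level the difference was negative for 3 genes, Ssr4 (-1.02 ± 0.07), Pdia3 (-0.48 ± 0.08) and Ssr2 (-0.38 ± 0.09), and Ddit3 did not pass (0.56; adjusted p = 0.320, edgeR). The share of all genes called in this restricted fit is not given.

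**Figure D5:**
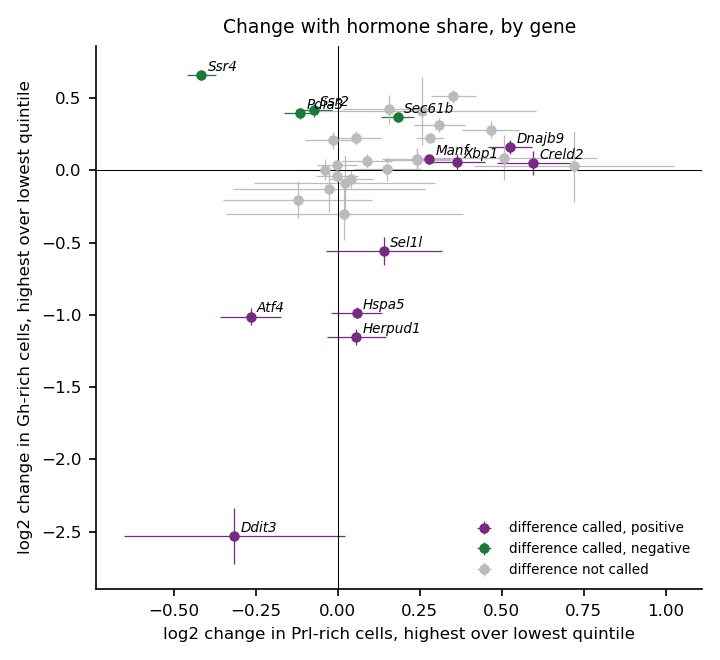
Log2 change from the lowest to the highest quintile of hormone share in Prl-rich (horizontal) and Gh-rich (vertical) cells, 1 point for each gene tested in all 3 fits, with standard errors. Purple and green mark genes whose difference between the sets passed the test; Ddit3 lies lowest at -2.53 in Gh-rich cells, and Ssr4 lies at -0.41 in Prl-rich and 0.66 in Gh-rich cells.

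Genes of neighbouring steps were also higher in the highest quintile. In Gh-rich cells 10 of 12 oligosaccharyltransferase genes were higher, led by Dad1 (log2 0.66 ± 0.03) and Rpn2 (log2 0.62 ± 0.05). Of 16 genes of targeting and signal cleavage 14 were higher, led by Sec11c (log2 0.65 ± 0.05) of the signal peptidase. Of 24 transport genes 13 were higher and 1 lower, with Kdelr3, a retrieval receptor for lumenal proteins, at log2 1.26 ± 0.11 and the coat protein gene Sec24a at log2 -1.07 ± 0.10. Of 18 other regulators and targets of the stress response 4 were higher and 9 lower, with Atf3 at log2 -2.58 ± 0.15 and Chac1 at log2 -1.91 ± 0.17. Their summed level was 8.02 and 9.36 per 10000 in the highest quintile, against 12.01 and 13.6 in the lowest. In cells at or under the median dissociation level their sum was 7.25 and 8.02, against 7.39 and 7.87. Atf3 is among these 18 genes and among those that chose the cells, so this restricted sum is not independent of the choice. In Prl-rich cells 6, 9 and 10 genes of the first 3 lists were higher, and 1 oligosaccharyltransferase gene lower, while 3 of the 18 stress response genes were higher and 2 lower.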

How the data were processed

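The deposited table holds raw UMI counts per gene and barcode, which the authors made with Cell Ranger and STAR on mm10, per the submitters' processing notes; no version is recorded there. The number at the end of a barcode was taken as the pool. Barcodes needed at least 500 UMIs, 250 genes and at most 20% mitochondrial UMIs. Scrublet's own threshold called 2 and 6 cells, so the 7.6% with the highest scores, the multiplet rate in the labels, were removed (494 and 537). Cells were clustered on marker genes (12 principal components, 15 neighbours, Leiden resolution 1, scanpy 1.11.5). Clusters needed 3 markers; those with 20 to 90% high-Gh cells stayed unnamed, a limit chosen with results of these data known.

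Raw counts were summed per class (or quintile) and library and tested with edgeR 4.0.16 (robust quasi-likelihood, TMM on totals outside hormone genes, filterByExpr, library as a block, Benjamini-Hochberg adjustment at 0.05). Hormone genes were left out of the tests of classes and of quintiles, and marker genes out of the class tests only. Where the reference is several classes, it is their mean on the log2 scale. The pools are replicates, and p-values measure how far 2 pools disagree on differences between classes, not the spread between mice; the library block pairs classes of the same glands. The fits were tested on simulated counts with 100 genes changed by log2 0.5 and 100 by log2 1: the class fit, for somatotrope-like cells, recovered 84 and 99 (9551 genes), the Gh-rich quintiles 47 and 98 (11794 genes), the Prl-rich quintiles 37 and 87 (9822 genes) and the difference of the sets 8 and 67 (11289 genes), with 5, 2, 5 and 4 other genes called. The simulated spread was the same for every gene and fit, and groups differed in no other genes. Recovery and false calls in the real data can therefore differ from these counts. Named were the 4 highest and 3 lowest called genes with at least 50 CPM, plus, where their role group is described, Hspa5, Xbp1, Ddit3, Atf4, Sec61b and Hsp90b1; other genes of the list named beyond these (among them Canx, Calr, Pdia3, Sel1l and Derl3 where they fall outside the rule) were chosen after their values were seen. The 35 genes, role groups and lists were chosen with earlier results of these data known. Counting error alone is covered by the bound from 3 counts. Gene roles are textbook knowledge.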

Additional observations from a re-analysis of the deposited data

Results flagged for a closer look

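The change from the lowest to the highest quintile of hormone share differed between Prl-rich and Gh-rich cells, in the test of the difference itself, for 13 of the 35 genes. As log2 differences, Prl-rich minus Gh-rich, 9 were positive: Ddit3 at 2.21, Herpud1 at 1.21, Hspa5 at 1.04, Atf4 at 0.74, Sel1l at 0.70, Creld2 at 0.55, Dnajb9 at 0.36, Xbp1 at 0.31 and Manf at 0.20. The 4 negative ones were Ssr4 at -1.07, Pdia3 at -0.51, Ssr2 at -0.49 and Sec61b at -0.19. The dissociation list fell with hormone share in Gh-rich cells for all 12 of its genes and rose in Prl-rich cells for 3 of 12, so the positive differences of Ddit3, Herpud1, Hspa5 and Atf4 lie beside a difference in that list. Ssr4, Pdia3 and Ssr2 kept their negative difference in cells at or under the median of the list, where the other 10 genes did not pass.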

How the results depend on the processing

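Counts of called genes stayed within 1.5 times for each class under DESeq2, other scaling, no filter, no library block, doublet calls kept and other clusterings, except in macrophage-like cells, where 23 genes were called without the TMM factor (12 with it). For the quintiles of Prl-rich cells (10 genes), 4 were called with DESeq2, 6 without the block, 5 between the depth quartiles and 19 with lactotrope-like cells in place of the cut on Prl. For the difference between the sets (13 genes), 8 were called with DESeq2, 6 without the block, 8 between the depth quartiles and 3 in cells of low dissociation level. The log2 ratio of the summed level, highest over lowest quintile, was -0.011 in Gh-rich cells (0.0069 and -0.029 in single libraries); it was -0.044 without the gene with most UMIs, -0.11 between the depth quartiles and 0.18 in cells of low dissociation level. In Prl-rich cells it was 0.067 (0.018 and 0.12 in single libraries) and -0.021 between the depth quartiles. For hormone classes over the others it was 0.67 (0.64 and 0.70 in single libraries), and 0.60 with doublet calls kept. Single genes were recomputed only for 81 named calls, each a gene in 1 comparison picked for a high or low log2 fold change. Their 981 recomputed values include 81 with library 1 left out and 81 with library 2 left out, which have no test. Of the 981 values 937 kept direction and, where a test was run, the call, and 35 lost the call. Those that reversed did so in cells of low dissociation level, except Hspa5 in macrophage-like cells without TMM (-0.17): Ddit3 in lactotrope-like (0.46), corticotrope-like (-0.15) and fibroblast-like cells (0.068), Atf4 in corticotrope-like (-0.37) and stem-like cells (-0.20), Herpud1 (-0.31) and Hspa5 (-1.05) in corticotrope-like cells, and Herpud1 over Gh-rich quintiles (0.14). The cause of these changes was not tested. With 1 library left out no residual degrees of freedom remain, so those runs give ratios and no test. Macrophage-like and pituicyte-like cells were too few for the low dissociation cells, and depth limits low genes such as Derl3 and Edem1 there.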
